A study of Mus musculus with 10 samples.

Results

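The genes described here are 7 genes of the integrated stress response (Atf4, Ddit3, Trib3, Atf3, Atf5, Chac1 and Ppp1r15a) and 3 kinases that start it (Eif2ak1, Eif2ak3 and Eif2ak4), 10 of the 55359 genes in the table. They were selected on the values of the same comparison, cKO against WT, so their differences are given as a description and without p-values. RNA was sequenced from Lin- bone marrow cells, the fraction left after removal of cells with surface markers of mature blood lineages. The 5 WT libraries are from Dhx9f/f mice and the 5 cKO libraries from Dhx9f/f;MX1 mice, with no age in the labels. The titles number the libraries as replicates, and the study's methods count replicates as individual mice unless stated otherwise. Both groups carry the floxed Dhx9 gene, which encodes an RNA and DNA helicase. The cKO mice also carry Cre under the interferon-responsive Mx1 promoter, which is active in many tissues besides blood and is switched on by poly(I:C), an RNA mimic. The study's methods time the analysis of mice from the start of poly(I:C), but do not say of the WT mice sequenced whether they received it. If they did not, its effect and that of genotype cannot be told apart. Expression is given as FPKM, a count of sequenced fragments scaled to the length of the gene and to the depth of the library.

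In the integrated stress response, kinases that sense different faults phosphorylate the alpha subunit of the translation factor eIF2. HRI (Eif2ak1) responds to lack of heme and to mitochondrial stress, PERK (Eif2ak3) to unfolded protein in the endoplasmic reticulum, GCN2 (Eif2ak4) to amino acid shortage and PKR (Eif2ak2) to double-stranded RNA. Phosphorylated eIF2 slows most translation while the mRNA of the transcription factor ATF4 is translated more, and ATF4 then drives genes of amino acid supply, redox defence and, with its target CHOP (Ddit3), cell death. In red cell precursors HRI is known for tying globin synthesis to the supply of heme.

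Before the values, the sequences show where 4 of these genes carry letters that ATF4 and its relatives are known to bind near the start of transcription. RefSeq promoter windows, from 250 bases before to 50 after each start on GRCm38.p6, were matched for 10 of 10 genes. They were searched on both strands for TGATGNAA, the core of the C/EBP-ATF response element, and for the cAMP response element TGACGTCA. The first was in 3 of the 10 genes and in 1219 of all 27025 genes in the table (4.51%). The second was in 1 of the 10 and in 549 of the 27025 (2.03%), and no gene of the 10 held both. The 30 bases around each match are printed 5′ to 3′ on the strand of the gene, with the match in capitals. In the first 3, TGATGNAA lies on the opposite strand, so the capitals show its reverse complement.
Trib3: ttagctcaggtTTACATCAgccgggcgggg
Atf3: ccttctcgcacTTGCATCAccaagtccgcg
Chac1: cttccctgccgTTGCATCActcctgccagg
Ppp1r15a: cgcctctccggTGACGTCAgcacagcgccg
Each 30-base stretch had 1 match on its chromosome in GRCm39, the build of the expression data. With the RefSeq start as +1, the Trib3 match began at base 15 (chr2:152185948-152185977, minus strand) and lay in an annotated exon. The Atf3 match began at -110 (chr1:190915622-190915651, minus strand), within the gene but outside its exons. The Chac1 match began at -193 (chr2:119181519-119181548, plus strand), in an exon of a longer annotated transcript. The Ppp1r15a match began at -12 (chr7:45175686-45175715, minus strand), at the edge of the annotated gene. A match is a run of letters, and binding was not measured here.

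Depth, read from the spacing of low FPKM values, was 13837000 to 18711100 fragments a library. The level of the targeted gene goes against the labels: Dhx9 was at 65.43 to 72.42 FPKM in the libraries labelled WT and at 130.82 to 156.49 in those labelled cKO. A value for the whole gene does not show whether its floxed part was lost, which was not tested. The groups are named by their labels. Xist, transcribed from the inactive X chromosome of females, was above 1 FPKM in 3 of 5 WT libraries (WT 3, WT 4 and WT 5) and in 0 of 5 cKO libraries. Sex is thus partly confounded with genotype. Values without those 3 libraries are given for Chac1 and for several lists whose counts changed. Library cKO 1 stood apart from the other 4 cKO libraries for many of the genes below, and its values are given apart from theirs for the 10 genes and the lists where it differed.

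Across the 10 genes, 5 were called higher in cKO (Ddit3, Trib3, Atf5, Chac1 and Ppp1r15a) and 0 lower, and all 10 passed the filter on low values. A gene was called at an adjusted p under 0.05 from limma with a fold change of at least 2. By the same rule 4.6% of the 18742 genes tested were called higher and 16.8% lower. Of the 10, 3 had all 5 cKO libraries above all 5 WT libraries and 1 had all below, where 10.6% and 21.6% of all genes tested did. Because the genes were picked from this contrast, nothing is read from these counts. Their median log2 fold change was 1.37, and that of all genes tested was -0.11. Without library cKO 1, 7 of the 10 were called higher, Atf4 and Atf3 being added.

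**Figure D1:**
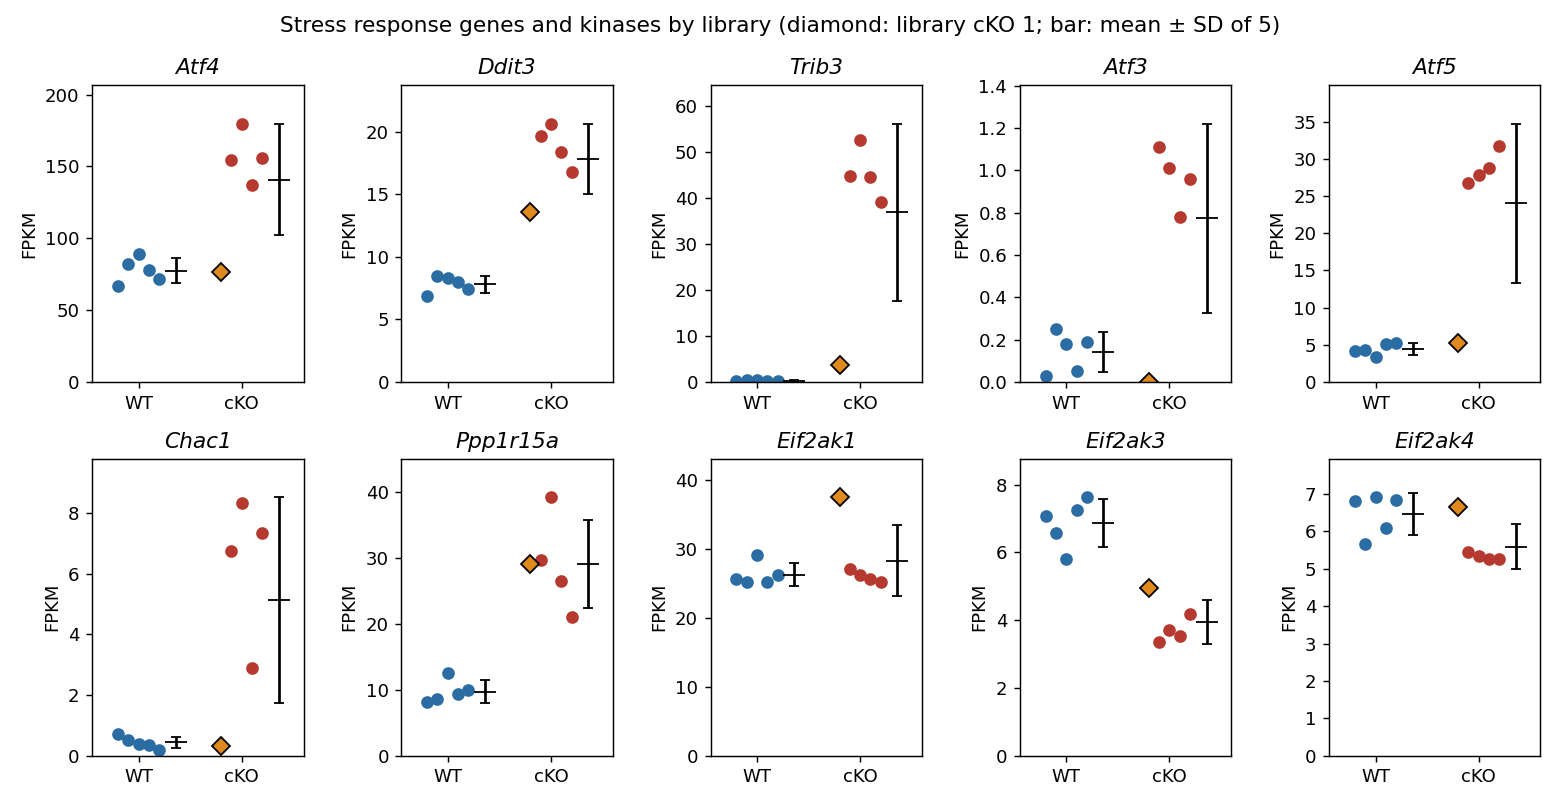
FPKM of the 10 genes in each library (vertical axes, linear and starting at 0), with WT in blue, cKO 2 to cKO 5 in red and cKO 1 as an orange diamond; black bars show the mean ± SD of 5 libraries. In 7 genes the red points lie above all blue points, while the diamond lies above the WT range in 4 genes, Ddit3, Trib3, Ppp1r15a and Eif2ak1.

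Atf4 (ENSMUSG00000042406; chr15:80139372-80141745, plus strand of GRCm39), the central transcription factor of the response, had the highest level per length of the 10 genes in both groups. It was at 67.06, 82.12, 88.77, 77.74 and 71.34 FPKM in WT 1 to WT 5 and at 76.76, 154.75, 179.68, 137.39 and 155.76 FPKM in cKO 1 to cKO 5. Library cKO 1 lay inside the WT range, and the other 4 cKO libraries lay above all WT libraries. The means were 77.4 ± 8.59 and 141 ± 38.9 FPKM (SD, n = 5 each), with a log2 fold change of 0.81 (standard error 0.198), under the fold change of 2 needed for a call. Without cKO 1 the log2 fold change was 1.02 (standard error 0.0984), and the cKO mean of 157 ± 17.4 FPKM (n = 4) was 2.03 times that of WT. These are mRNA levels, whereas ATF4 is known to be set largely by translation, which was not measured here.

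Ddit3 (ENSMUSG00000025408; chr10:127124268-127132163, plus strand), which encodes CHOP, was at 6.87, 8.48, 8.31, 7.99 and 7.41 FPKM in WT and at 13.58, 19.7, 20.66, 18.42 and 16.79 FPKM in cKO 1 to cKO 5. All 5 cKO libraries were above all WT libraries, with cKO 1 the lowest of the 5. The means of 7.81 ± 0.666 and 17.8 ± 2.78 FPKM (n = 5 each) gave a log2 fold change of 1.17 (standard error 0.116). Ddit3 lies across Mars1, the methionyl-tRNA synthetase gene on the opposite strand, and 64.1% of the exon bases of Ddit3 are also exon bases of Mars1. Whether the counting used strand is not stated, so reads of the pair may not be told apart. Mars1 was at 38.8 ± 7.20 FPKM in WT and 51.3 ± 6.19 in cKO (log2 fold change 0.41, adjusted p = 0.0221 from limma). A part of Mars1 reads in the values of Ddit3 was not tested.

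Atf5 (ENSMUSG00000038539; chr7:44461680-44466082, minus strand), a relative of ATF4 known for its part in the mitochondrial stress response, was at 4.22, 4.27, 3.31, 5.1 and 5.2 FPKM in WT. In cKO 1 to cKO 5 it was at 5.18, 26.79, 27.79, 28.77 and 31.71 FPKM. Here too cKO 1 fell within the WT range, and the other 4 were at 28.8 ± 2.12 FPKM (n = 4), 6.51 times the WT mean. The log2 fold change was 2.2 (standard error 0.438) over all 5 cKO libraries and 2.69 (standard error 0.128) without cKO 1. It shares 8.36% of its exon bases with Nup62 on the opposite strand.

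Atf3 (ENSMUSG00000026628; chr1:190902493-190950241, minus strand), a stress-induced factor that binds ATF and AP-1 sites, was the lowest of the 10 genes. It was at 0.03, 0.25, 0.18, 0.05 and 0.19 FPKM in WT, was listed at 0 in cKO 1, and was at 1.11, 1.01, 0.78 and 0.96 FPKM in cKO 2 to cKO 5. These values stand for about 1 to 10 fragments in a WT library and 28 to 47 in cKO 2 to cKO 5. The log2 fold change was 1.56 (standard error 0.667) with cKO 1 and 2.25 (standard error 0.342) without it. At this depth the gene was barely detected in WT, and its log2 fold change ran from 0.59 with a pseudocount of 1 to 2.25 without cKO 1 over the settings tried.

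Trib3 (ENSMUSG00000032715; chr2:152179337-152191958, minus strand), a pseudokinase that is induced by ATF4 and CHOP and restrains them, differed most in proportion. It was at 0.28, 0.31, 0.33, 0.15 and 0.09 FPKM in WT and at 3.6, 44.81, 52.48, 44.47 and 39.11 FPKM in cKO 1 to cKO 5. All 5 cKO libraries lay above all WT libraries, and cKO 1, at 15.5 times the WT mean, stood far below the other 4. The means were 0.232 ± 0.106 and 36.9 ± 19.2 FPKM (n = 5 each), a 159-fold ratio, and without cKO 1 the ratio was 195-fold. The WT values rest on about 5 to 17 fragments a library and those of cKO 2 to cKO 5 on 2109 to 2853. The log2 fold change was 6.43 (standard error 0.661). With a pseudocount of 1 it was 4.56, since the pseudocount exceeds the WT level.

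Chac1 (ENSMUSG00000027313; chr2:119180757-119184866, plus strand) encodes an enzyme that breaks down glutathione. It was at 0.7, 0.52, 0.4, 0.36 and 0.2 FPKM in WT and at 0.31, 6.75, 8.34, 2.9 and 7.33 FPKM in cKO 1 to cKO 5. The value of cKO 1 was within the WT range, and cKO 4 was the lowest of the remaining 4, at less than the level of any of cKO 2, cKO 3 and cKO 5. The means were 0.436 ± 0.187 and 5.13 ± 3.39 FPKM (n = 5 each), with a log2 fold change of 2.78 (standard error 0.744) that became 3.56 (standard error 0.362) without cKO 1. In WT the 2 libraries without Xist were at 0.52 and 0.7 FPKM, above the other 3. Against those 2 alone the log2 fold change was 2.31 (standard error 1.13), and the gene was no longer called.

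Ppp1r15a (ENSMUSG00000040435; chr7:45172340-45175692, minus strand) encodes GADD34, which brings protein phosphatase 1 to eIF2 and so ends the response. It was at 8.09, 8.62, 12.53, 9.32 and 9.96 FPKM in WT and at 29.08, 29.71, 39.23, 26.52 and 21.0 FPKM in cKO 1 to cKO 5. This gene did not set cKO 1 apart: at 3.0 times the WT mean it sat amid the other 4, and all 5 cKO libraries were above all WT libraries. The means were 9.70 ± 1.73 and 29.1 ± 6.62 FPKM (n = 5 each), and the log2 fold change was 1.56 with cKO 1 and 1.56 without it (standard errors 0.163 and 0.180). Among cKO 2 to cKO 5, cKO 3 was the highest library for Atf4, Ddit3, Trib3, Chac1 and Ppp1r15a, whereas cKO 2 was the highest for Atf3 and cKO 5 for Atf5.

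The kinase mRNAs gave a different picture. Eif2ak1 (ENSMUSG00000029613; chr5:143803530-143843661, plus strand), the kinase HRI, was at 25.72, 25.22, 29.15, 25.26 and 26.21 FPKM in WT and at 37.53, 27.07, 26.24, 25.67 and 25.17 FPKM in cKO 1 to cKO 5. Library cKO 1 alone lay above the WT range, and cKO 5 lay just below it. The means were 26.3 ± 1.64 and 28.3 ± 5.19 FPKM (n = 5 each), with a log2 fold change of 0.09 (standard error 0.107) and, without cKO 1, of -0.01 (standard error 0.0569). Of its exon bases 25.6% are shared with Aimp2 on the opposite strand, which was at a mean of 22.3 FPKM in WT and 25.6 in cKO.

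Eif2ak3 (ENSMUSG00000031668; chr6:70821461-70882235, plus strand), the kinase PERK, was at 7.08, 6.57, 5.8, 7.25 and 7.62 FPKM in WT and at 4.96, 3.34, 3.72, 3.53 and 4.18 FPKM in cKO 1 to cKO 5. All 5 cKO libraries were below all WT libraries. The means were 6.86 ± 0.705 and 3.95 ± 0.647 FPKM (n = 5 each), and the log2 fold change of -0.79 (standard error 0.125) was too small for a call. It was -0.88 without cKO 1 and -0.50 after quantile normalization.

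Eif2ak4 (ENSMUSG00000005102; chr2:118218950-118305868, plus strand), the kinase GCN2, was at 6.82, 5.67, 6.91, 6.1 and 6.85 FPKM in WT and at 6.66, 5.44, 5.34, 5.25 and 5.26 FPKM in cKO 1 to cKO 5. The groups overlapped through cKO 1, and cKO 2 to cKO 5 were all below WT. The means were 6.47 ± 0.556 and 5.59 ± 0.603 FPKM (n = 5 each). The log2 fold change of -0.21 (standard error 0.0995) became 0.04 after quantile normalization, so its direction depended on the scaling. The remaining kinase of the family, PKR (Eif2ak2), was at 17.97 to 23.3 FPKM in WT and 14.41 to 37.56 in cKO, with cKO 1 the highest (log2 fold change 0.18, standard error 0.225, adjusted p = 0.55 from limma).

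By level per length, the order in WT was Atf4, Eif2ak1, Ppp1r15a, Ddit3, Eif2ak3, Eif2ak4, Atf5, Chac1, Trib3 and Atf3. The ranges of Ppp1r15a, Ddit3 and Eif2ak3 each overlapped that of the next gene in this order, as did those of Chac1 and Trib3, while the other neighbours up to Chac1 did not overlap. Trib3 and Atf3 overlapped as well. In the means of cKO the order was Atf4, Trib3, Ppp1r15a, Eif2ak1, Atf5, Ddit3, Eif2ak4, Chac1, Eif2ak3 and Atf3. Trib3 went from the ninth place to the second, although its range in cKO, opened downward by cKO 1, overlapped those of all the other genes but Atf4 and Atf3. In cKO 2 to cKO 5 its lowest value, 39.11 FPKM, was above the highest of Eif2ak1, 27.07 FPKM, but just under the highest of Ppp1r15a, 39.23 FPKM. In cKO 1, by contrast, Trib3 at 3.6 FPKM was still below Eif2ak4, Eif2ak3 and Atf5.

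The genes with the profile most like that of Trib3 over the 10 libraries were Trgc1, Cth, C2cd4a, Gm55994 and Podxl, out of 12353 genes whose mean reached 1 FPKM. Likeness was the mean absolute difference of the centred log2 values, which ran from 0.449 for Trgc1 to 0.807 for Podxl. Cth, the transsulfuration enzyme that makes cysteine, was at 0.06 to 0.21 FPKM in WT, at 1.14 in cKO 1 and at 12.91 to 24.01 in cKO 2 to cKO 5. Trgc1, a constant segment of the T cell receptor gamma locus, was at 0.78 to 2.31 FPKM in WT, at 12.59 in cKO 1 and at 110.88 to 160.73 in cKO 2 to cKO 5. For Atf4 the most alike were Afg2a, Jund, Eprs1, Xpot and Zc3h8, at 0.0712 to 0.0862. Eprs1 encodes the glutamyl-prolyl-tRNA synthetase and Xpot the export receptor for tRNA. Eprs1 was at 15.58 to 23.96 FPKM in WT, at 21.98 in cKO 1 and at 36.77 to 41.03 in cKO 2 to cKO 5.

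A list of 55 further genes known as ATF4 targets was examined next, of which 53 could be tested. Fgf21 was listed at 0 in all libraries and Cbs was under the filter on low values. Of the 53, 22 were called higher in cKO (41.5%, against 4.6% of all genes) and 5 lower (9.43%, against 16.8%). All 5 cKO libraries were above all WT libraries in 22 genes and below in 3, where 10.6% and 21.6% of all genes tested were. By adjusted p alone, 38 were higher and 7 lower, where 16.7% and 28.3% of all genes tested were. The median log2 fold change of the list was 0.88, against -0.11 over all genes. Without cKO 1, 27 were called higher and 4 lower, with a median of 1.05. The list was drawn up with earlier results of these libraries known, so it is not independent evidence of a direction.

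Asns, the asparagine synthetase, was at 44.93 to 75.56 FPKM in WT, at 151.43 in cKO 1 and at 209.25 to 247.66 in cKO 2 to cKO 5 (log2 fold change 1.95, standard error 0.162, adjusted p = 4.5e-05 from limma). The 5 largest log2 fold changes were those of Cth (5.60), Slc7a3 (4.53), Aldh1l2 (3.36), Slc7a11 (3.30) and Stc2 (3.13). Slc7a3 carries cationic amino acids and Slc7a11 exchanges cystine for glutamate, while Aldh1l2 is a mitochondrial folate enzyme and Stc2 a secreted glycoprotein. Cth reached a mean of 16.9 FPKM in cKO. The WT means of all 5 were at most 0.146 FPKM, so these fold changes depend on the pseudocount, and in the mean of cKO 2 to cKO 5 the differences were 6.41, 5.16, 3.96, 3.93 and 3.73. Slc7a3, Aldh1l2, Slc7a11, Stc2 and also Gdf15 had WT means under 0.1 FPKM and passed the filter on low values only through cKO, so they had to differ. With these 5 set aside, 17 of 48 targets were called higher and 5 lower, with a median log2 fold change of 0.74. Shmt2, a mitochondrial enzyme of serine and folate metabolism and one of the more abundant targets, was at 49.08 to 76.9 FPKM in WT, at 84.88 in cKO 1 and at 145.04 to 165.09 in cKO 2 to cKO 5 (log2 fold change 1.17, adjusted p = 0.00051).

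The 5 targets called lower were Rgs2 (-3.53), Jdp2 (-2.10), Vldlr (-1.90), Klhl24 (-1.14) and Niban1 (-1.14), each as a log2 fold change. Rgs2 dampens G protein signals and Jdp2 is an AP-1 repressor. In contrast to Trib3 and Asns, Rgs2 was at 11.13 to 17.15 FPKM in WT and at 2.17 in cKO 1, inside the range of 0.31 to 2.70 in cKO 2 to cKO 5. Of the 55 targets, 44 had a promoter in RefSeq, and 16 of these (36.4%) held TGATGNAA, as did 7 of the 17 found among those called higher (41.2%). The share over all genes was 4.51%.

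Library cKO 1 departed from the other cKO libraries across the target list as well. Of the 53 targets, 23 (43.4%) were above the WT range in cKO 1, and 41 or 42 (77.4% to 79.2%) were in each of cKO 2 to cKO 5. Over all genes tested the share above the WT range was 28.5% in cKO 1 and 25.3% to 29.4% in the other 4. The departure was not limited to these genes. Over the genes past the filter on low values, chi-square per degree of freedom between cKO 1 and each other cKO library was 60 to 63.2. Between the other cKO libraries it was 15.5 to 42.6, and between WT libraries 7.11 to 43.5. The median difference from WT of the targets was 0.20 on the log2 scale in cKO 1 and 1.05 in the mean of cKO 2 to cKO 5, and for the 10 genes it was 0.14 and 1.41. The summed level of the list was 977 to 1228 FPKM in WT, 1261 in cKO 1 and 1952 to 2207 in cKO 2 to cKO 5.

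**Figure D2:**
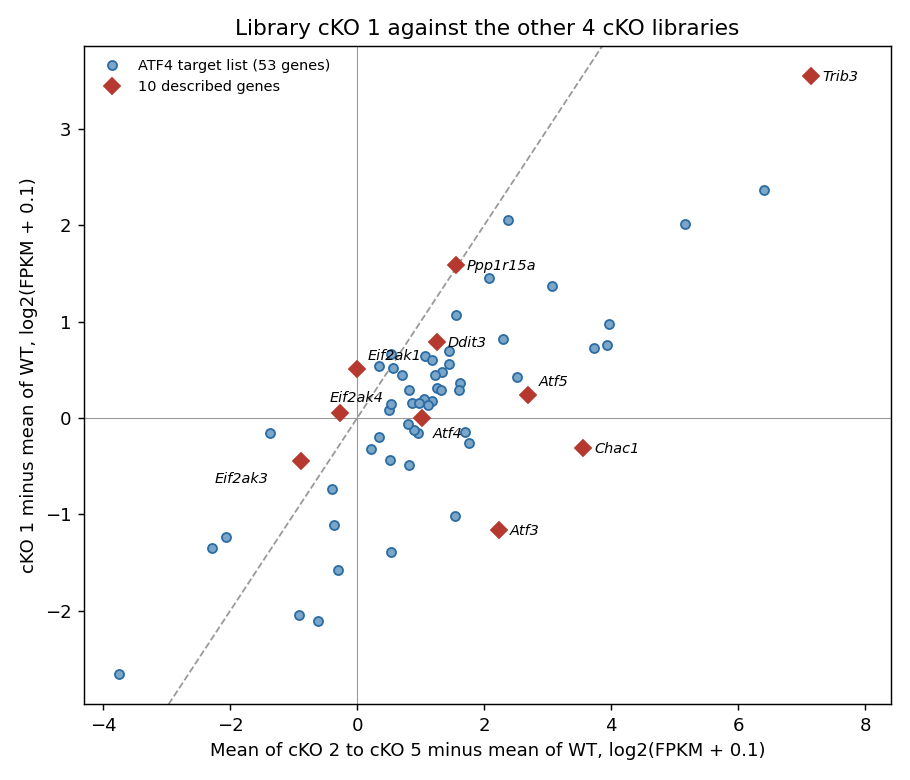
Difference from the WT mean on log2(FPKM + 0.1) in library cKO 1 (vertical axis) and in the mean of cKO 2 to cKO 5 (horizontal axis), for the 10 genes (red diamonds) and 53 ATF4 targets (blue circles); the dashed line marks equal differences. Most targets with positive values lie below the line, Trib3 at 3.55 against 7.15, while Ppp1r15a lies on it at 1.59 against 1.56.

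The other parts of the pathway were followed through lists of related genes. Of 10 genes made up of PKR itself, Abce1 and genes that activate or restrain the kinases, 0 were called higher and 1 lower, where 4.6% and 16.8% of all genes were. By adjusted p alone 3 were higher and 3 lower, where 16.7% and 28.3% of all genes were. The median log2 fold change was -0.02. The 1 called was Prkra, an activator of PKR, at 11.48 to 15.05 FPKM in WT, at 5.59 in cKO 1 and at 3.01 to 5.61 in cKO 2 to cKO 5 (log2 fold change -1.65, adjusted p = 0.000111 from limma). Hspa5, the chaperone that holds PERK inactive, was at 183 ± 44.8 and 141 ± 18.5 FPKM (log2 fold change -0.35, adjusted p = 0.0945), and Abce1, a ribosome recycling factor, was at 57.9 ± 7.68 and 83.1 ± 11.5 (log2 fold change 0.52, adjusted p = 0.00474).

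Of 14 genes of eIF2, its exchange factor eIF2B and related factors, 2 were called higher and 0 lower, and by adjusted p alone 11 were higher and 1 lower. Of all genes 4.6% were called higher and 16.8% lower, and 16.7% and 28.3% by adjusted p alone. Leaving out any library other than WT 2 left 1 gene called, as did the fits without trend, without a filter, with a pseudocount of 1 or with account of Xist. The median log2 fold change was 0.44. Eif2b3, a subunit of the exchange factor, was at 4.09 to 8.22 FPKM in WT, at 9.63 in cKO 1 and at 10.93 to 12.64 in cKO 2 to cKO 5 (log2 fold change 1.08, adjusted p = 0.00052 from limma). The other called gene, Eif2s3y, is Y-linked and follows the sex of the mice. Eif2s1, the alpha subunit that the kinases phosphorylate, was at 33.62 to 51.8 FPKM in WT, at 55.15 in cKO 1 and at 72.5 to 80.79 in the other cKO libraries (log2 fold change 0.82, adjusted p = 0.000552), and Eif5 was at 69.5 ± 3.19 and 86.4 ± 2.66 FPKM. Of the 4 phosphatase genes 0 were called by limma, and 1 was higher by adjusted p alone. Ppp1r15b, the constitutive partner of phosphatase 1, had a log2 fold change of 0.39 (adjusted p = 0.000419), against 1.56 for its inducible relative Ppp1r15a, and Ppp1ca, the catalytic subunit, one of -0.02.

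Among 31 tested basic leucine zipper factors, the family from which ATF4 and CHOP take their partners, 2 were called higher and 9 lower (median log2 fold change -0.53), against 4.6% and 16.8% of all genes. Without cKO 1 the counts were 4 higher and 8 lower, with a median of -0.45. Without the libraries with Xist they were 0 higher and 8 lower, with a median of -0.58. In that fit 536 of all genes were called higher instead of 862. Jun was at 1.6 to 2.58 FPKM in WT, at 2.58 in cKO 1 and at 5.69 to 12.48 in cKO 2 to cKO 5 (log2 fold change 1.59), and Fosl1 was at most 1.16 FPKM in any library. The lower genes were led by Fosl2 (-3.11), Cebpa (-3.09), Fos (-2.49), Cebpe (-2.35) and Jdp2 (-2.10). Cebpa and Cebpe are known as myeloid factors, and Cebpa was at 31.07 to 56.55 FPKM in WT and at 1.6 to 15.27 in cKO. Of the 2 most abundant, Nfe2 was at 51.8 and 39.5 FPKM and Atf1 at 38.4 and 49.3 FPKM in the means of WT and cKO. Of the 4 relatives of Trib3 and Chac1 0 were called by limma. By adjusted p alone 1 was higher and 1 lower, where 16.7% and 28.3% of all genes were. Trib2 was at 7.71 and 5.93 FPKM and Chac2 at 12.1 and 17.6 FPKM in the means of WT and cKO.

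The other branches of the unfolded protein response, run by IRE1 (Ern1) with XBP1 and by ATF6, gave lower values in cKO. Of 15 genes 0 were called higher and 6 lower (16.8% of all genes were called lower). By adjusted p alone 13 of the 15 were lower (28.3% of all genes), and in 11 all cKO libraries were below all WT libraries (21.6% of all genes). The median log2 fold change was -0.84. The 5 largest falls among those called were Ern1 (-1.67), Edem1 (-1.28), Xbp1 (-1.24), Pdia4 (-1.22) and Dnajb9 (-1.17). Ern1 was at 13.51 to 23.17 FPKM in WT and at 3.20 to 7.65 in cKO, and Hsp90b1, the chaperone of the endoplasmic reticulum also called GRP94, was at 192.09 to 266.59 and 96.98 to 141.49. Calr, the calcium-binding chaperone calreticulin and the most abundant gene of the list, was at 503 ± 68.3 FPKM in WT and 280 ± 32 in cKO (log2 fold change -0.84, adjusted p = 0.000184 from limma). Unlike the ATF4 targets, this list had cKO 1 amid the other cKO libraries, with a summed level of 673.6 FPKM in cKO 1, 663 to 858.1 in cKO 2 to cKO 5 and 1104 to 1506 in WT. The direction of the median held under each scaling tried, from -0.73 to -0.91.

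Mitochondrial stress is known to reach HRI through the proteins OMA1 and DELE1. Of 8 mitochondrial chaperones and proteases 2 were called higher and 0 lower, and 7 were higher by adjusted p alone (median log2 fold change 0.70), where 4.6%, 16.8% and 16.7% of all genes were. Lonp1, the matrix protease, was at 29.79 to 37.33 FPKM in WT and at 49.31 in cKO 1. In cKO 2 to cKO 5 it was at 66.12 to 79.69 (log2 fold change 1.06, adjusted p = 0.000133 from limma). Lonp1 is also on the list of ATF4 targets and is counted among those called higher there. Hspe1 was at 102.18 to 167.19 FPKM in WT, at 176.86 in cKO 1 and at 281.23 to 339.28 in the other cKO libraries (log2 fold change 1.0, adjusted p = 0.00125), and Hspd1, its partner chaperone, at 296 and 421 FPKM in the means. Of the 8, 1 was called instead of 2 on leaving out WT 1, WT 4, WT 5 or any of cKO 2 to cKO 5, with an equal sum per library or with a pseudocount of 1, and 0 after quantile normalization. Since Atf3, Ppp1r15a and Jun also respond quickly to handling of cells, 13 immediate-early genes were listed, of which 11 were tested: 2 were called higher, Egr1 (2.66) and Jun (1.59), and 4 lower, led by Fos (-2.49) and Nr4a1 (-1.95). The 2 most abundant, Ier2 and Btg2, were not called. A part of cell handling in the values of Atf3 and Ppp1r15a was not tested.

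**Figure D3:**
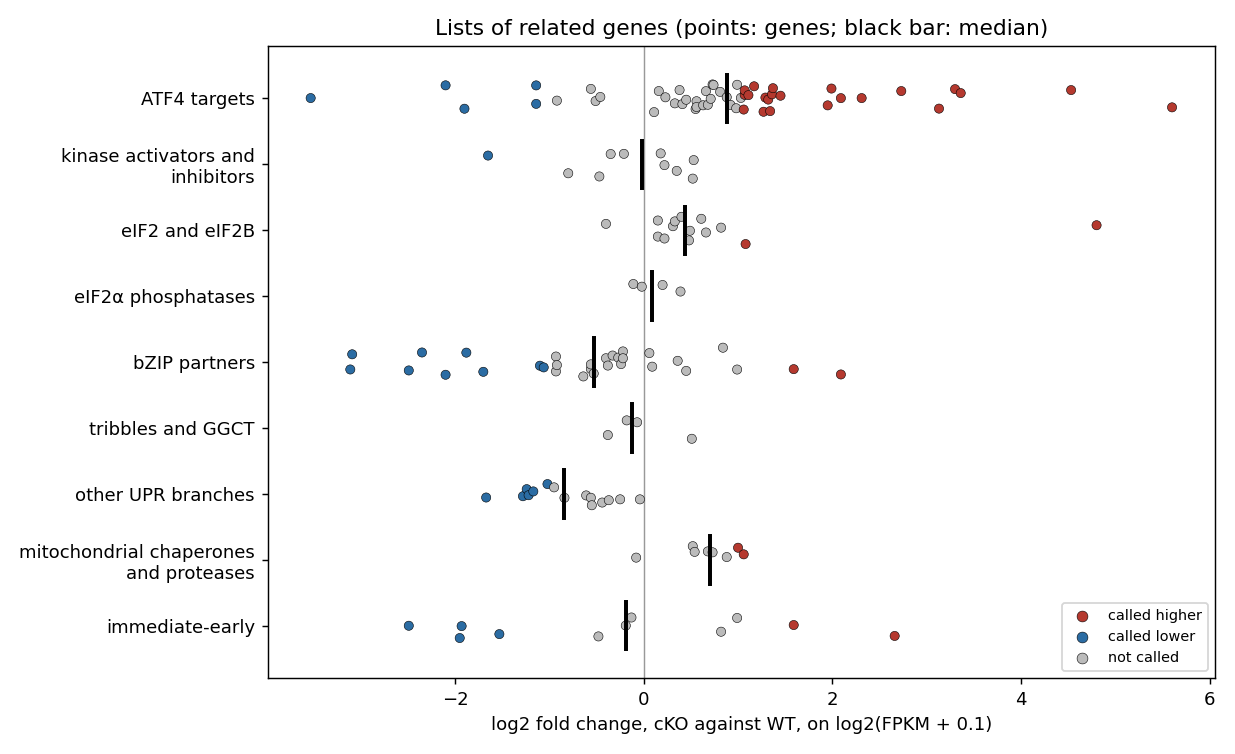
Log2 fold change of cKO against WT on log2(FPKM + 0.1) for the tested genes of 9 lists (points, red called higher, blue called lower, grey not called; black bars are medians; vertical scatter within a list has no meaning). The ATF4 targets reach from -3.53 to 5.60 with a median of 0.88, and the other branches of the unfolded protein response lie below 0 with a median of -0.84.

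Markers of blood lineages moved with the same contrast, and in bulk RNA fewer cells of a type and less RNA per cell cannot be told apart. Over all genes tested, 4.6% were called higher and 16.8% lower. Of 14 erythroid markers 8 were called higher and 0 lower (median log2 fold change 1.58), and their summed level was 1285 to 2430 FPKM in WT, 6100 in cKO 1 and 4167 to 7148 in cKO 2 to cKO 5. As a mean on log2(FPKM + 0.1) the erythroid markers were at 5.55 to 6.71 in WT, 7.72 in cKO 1 and 7.16 to 7.68 in cKO 2 to cKO 5. By the sum cKO 1 lay within the range of the other cKO libraries, and by the log mean just above it. The globin gene Hbb-bs was at 158 ± 111 FPKM in WT and 1030 ± 267 in cKO. Of 10 monocyte and dendritic cell markers 10 were called lower, with a summed level of 1015 to 1748 FPKM in WT, 103.5 in cKO 1 and 46.8 to 333.2 in cKO 2 to cKO 5.

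Neutrophil, mast cell and basophil and megakaryocyte markers were higher in cKO 1 than in the other cKO libraries. The summed level of the neutrophil markers was 2729 to 3712 FPKM in WT, 2599 in cKO 1 and 147 to 1120 in cKO 2 to cKO 5, and their mean on log2(FPKM + 0.1) was 5.68 to 6.05 in WT, 7.04 in cKO 1 and 2.13 to 5.8 in the rest. Of 10 neutrophil markers, 4 were called lower, where 16.8% of all genes were. Without the libraries with Xist, 2 of these markers were called lower. The mast cell and basophil markers summed to 681.5 to 1355 FPKM in WT, 583 in cKO 1 and 87.96 to 313.4 in the rest, and the megakaryocyte markers to 274.6 to 1252, 182.9 and 79.59 to 155.6 FPKM. Among the other lists, 8 of 10 stem and progenitor, 7 of 7 megakaryocyte, 5 of 6 mast cell and basophil, 4 of 7 B lymphoid, 5 of 8 T and NK and 5 of 6 stromal and endothelial markers were called lower, with 0 called higher in each. By the same rule 16.8% of all genes were called lower. With a pseudocount of 1 the lower calls in these lists were 5, 6, 5, 2, 2 and 3. Without the libraries with Xist they were 6, 6, 4, 2, 2 and 3, in a fit where 2261 of all genes were called lower instead of 3153. At a mean of at least 1 FPKM, 3 B lymphoid, 2 T and NK and 1 stromal and endothelial marker remained tested. Of these 2, 2 and 1 were called lower. As a check of the labelled fraction, Kit, a receptor of blood progenitors, was at 45.9 ± 7.83 FPKM in WT and 25.5 ± 5.57 in cKO, whereas Cd34 was at 25.6 ± 3.44 and 3.10 ± 2.33. The part of these shifts in the levels of the stress response genes was not tested.

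**Figure D4:**
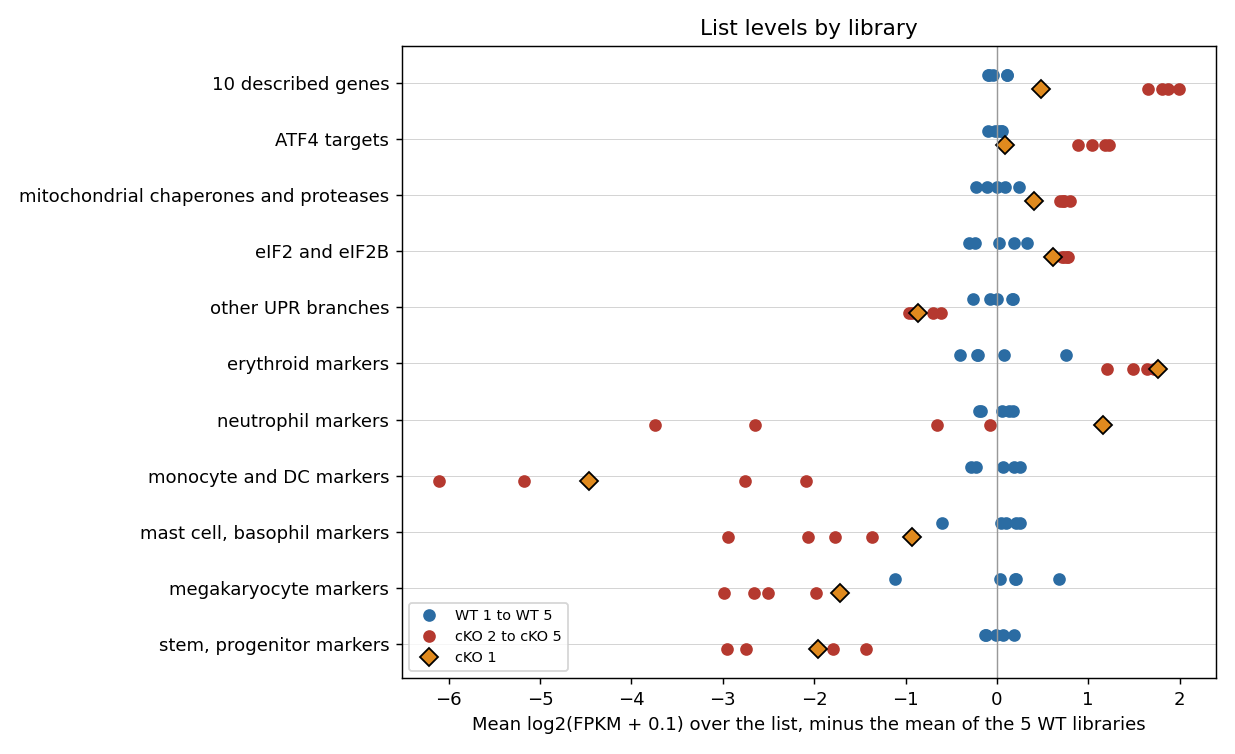
Mean log2(FPKM + 0.1) over each list in each library, minus the mean of the 5 WT libraries (horizontal axis), with WT in blue, cKO 2 to cKO 5 in red and cKO 1 as an orange diamond. The diamond is next to WT for the ATF4 targets, at 3.14 against 2.96 to 3.11 before subtraction. For the erythroid markers it is at the right edge of the red points, at 7.72 against 7.16 to 7.68, and for the neutrophil markers to the right of all points.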

How the data were processed

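Adapters and low-quality reads had been removed (cutadapt 1.9.1, per the submitters' processing notes) and the reads aligned to GRCm39 with HISAT2 2.0.1. The notes also name HTSeq 0.6.1. The authors deposited 1 FPKM value for each gene in each library, with 2 decimals. DESeq2, which the study used, needs counts and was not run. Groups and replicate numbers came from the labels. The 10 genes, the lists of related genes and markers and the alternatives were chosen with earlier results of these data known. Named from the lists of related genes were genes called, up to 5 in each direction by size of log2 fold change, and the 2 of highest mean FPKM. Of the 4 immediate-early genes called lower, only Fos and Nr4a1 were named. From the marker lists Hbb-bs, Kit and Cd34 were named outside this rule. For Trib3 and Atf4 the 5 genes of most similar profile were named too. Eif2ak2 and the overlapping genes Mars1, Nup62 and Aimp2 were named after their values were seen.

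Values were taken as log2(FPKM + 0.1) for the 18742 genes whose mean reached 0.1 FPKM and fitted with limma 3.58.1 in R 4.3.3 (lmFit and eBayes with trend, two-sided, Benjamini-Hochberg adjustment over all genes tested). A call needed an adjusted p below 0.05 together with a fold change of 2 or more. Depth was read from genes with 1 transcript, where 95.3% to 95.8% of low values fell within 0.2 of a whole number of fragments (40% by chance). A gene of 1000 bp at 3 fragments stands at 0.16 to 0.217 FPKM, and this covers counting error only. No pair of libraries in a group was alike within sampling noise (chi-square per degree of freedom at least 7.11). Fragment numbers and exon overlaps use GENCODE annotation of GRCm39. The steps were tested on simulated data. Promoter letters came from RefSeq with older gene symbols where needed.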

Additional observations from a re-analysis of the deposited data

Results flagged for a closer look

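In each of the 20 groups formed by the 10 genes and 2 genotypes, the highest and the lowest library were compared with the nearest of the others by Dixon's rule. Chance gives about 1 in 20 such flags, or 1 over these groups, and 5 were found, 4 of them in library cKO 1. Trib3 at 3.6 FPKM and Atf5 at 5.18 FPKM in cKO 1 were far below the other 4 cKO libraries. Eif2ak1 at 37.53 FPKM and Eif2ak4 at 6.66 FPKM in cKO 1 were far above them. The last was Eif2ak1 in WT 3, at 29.15 FPKM above the other WT libraries.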

How the results depend on the processing

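Over 22 other settings Ddit3, Trib3, Atf5 and Ppp1r15a were called higher in all 22 and Chac1 in 20, the exceptions being the covariate for Xist and the libraries without Xist. Atf4 was called without cKO 1 and by adjusted p alone, and Atf3 without cKO 1, after quantile normalization and with the replicate block. Eif2ak3 was called lower by adjusted p alone. Genes called higher numbered 862 as reported, 356 with a pseudocount of 1, 462 with a mean of at least 1 FPKM, 1581 after quantile normalization, 3138 by adjusted p alone and 536 without the Xist libraries. Genes called lower numbered 3153, and 1486, 1827 and 5300 with the first 2 and by adjusted p alone. ATF4 targets called higher went from 22 to 38 by adjusted p alone, and those called lower from 5 to 3 with a pseudocount of 1 and to 3 without the Xist libraries. The cause was not tested, apart from the fewer genes or libraries that some settings hold. Quantile normalization raised the share of higher calls from 21.5% to 41.3% and the median over all genes from -0.106 to 0.099 on the log2 scale. With the 7-letter core TGATGNA, 13.8% of all promoters held a match, and 4 of the 10 genes. Whether replicate numbers pair the libraries was not settled: same-numbered deviations correlated at 0.117, 0.0258, -0.0103, -0.00304 and 0.0929, and 3 of 5 matched their own number best. With the number as a block the standard error of Atf4 went from 0.198 to 0.133 and that of Chac1 from 0.744 to 0.777. With the number as a block, 857 genes were called higher and 3107 lower, and 22 ATF4 targets higher and 5 lower. Leaving out 1 library at a time kept the counts over all genes and the ATF4 targets within 1.5 times. Depth limits Atf3, Trib3 and Chac1 in WT.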
